A study of Mus musculus with 18 samples.

Results

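The Ctrl group consisted of 6 kidneys from male C57BL/6 mice of wild-type genotype, 6 weeks of age in the labels. The paper gives this as the age of the mice when obtained, before an adaptation period and the weeks of the defeat procedure. The kidneys were therefore taken at a later age. These undefeated controls met no aggressor, received no drug and were handled daily. The paper also reports a sucrose preference test and a forced swim test of the control group. They are 6 of the 18 mice of the series, chosen by their label, and the other 12 mice are not described here. Each sample was the right kidney of a separate mouse, so that cortex, medulla, vessels and any tissue left attached to the organ were read together as poly(A) RNA. The level of each of 32675 genes is given as FPKM, the fragments mapped to a gene scaled by library depth and by transcript length. Genes were ranked on this scale. At close mean estimated counts of 35759 and 35860, the ribosomal protein genes Rps24 and Rplp1 had 64.9 and 817 FPKM. Whether transcript length alone accounts for such differences was not tested, so that ranks and sums hold for the FPKM as listed. Total estimated counts per kidney were between 73000203 and 78650116. No group was compared with another, and values are given as lowest, median and highest of the 6 kidneys, or as mean ± SD (n = 6).

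The kidney filters plasma in the glomerulus and then recovers most of the filtrate along the nephron. The proximal tubule, which makes up most of the cortex, takes back glucose, phosphate, amino acids and filtered protein, secretes drugs and organic ions, and makes glucose. It depends on mitochondria for this work. The thick ascending limb takes up salt without water and secretes uromodulin, the distal convoluted and connecting tubules adjust sodium and calcium, and the collecting duct controls water, sodium and acid.

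A mean of at least 1 FPKM was reached by 12031 genes, and single kidneys had between 11659 and 12324 such genes. Of the 12031 genes, 10562 were protein-coding genes of the nucleus, 36 belonged to the mitochondrial genome, 810 were annotated as pseudogenes and 623 were of other classes. Abundance was very uneven. The 34 genes at 1000 FPKM or more held 46.5% ± 2.87 of all FPKM, the 463 genes from 100 to under 1000 FPKM held 24.9% ± 2.32, and the 8280 genes from 1 to under 10 FPKM together held 7.28% ± 0.427. The median gene of the 12031 was at 5.16 FPKM, and the median coefficient of variation between mice over the 12031 genes was 15.3%. A coefficient of variation under 25% was found for 81.7% of the 12031 genes, and 292 genes exceeded 50%.

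Ctrl replicate 3 stood apart from the other 5 libraries. Among the 6135 genes at a mean of 5 FPKM or more, it had 184 over 2-fold from the median of the other kidneys, on log2(FPKM + 1). The others had 20 to 55 such genes. Its Pearson's r with the others across genes was at most 0.977, on log2(FPKM + 0.1). Its deviation went with transcript length. Among 3405 protein-coding genes at 10 FPKM or more, the median log2 difference from the other kidneys was -0.52 for the 643 genes with transcripts under 800 bases, -0.32 for the 1227 genes of 800 to under 1600 bases, -0.01 for the 1131 genes of 1600 to under 3200 bases and 0.30 for the 404 genes of 3200 bases or more. In the other 5 kidneys these medians lay between -0.08 and 0.10. The nuclear-retained RNAs Malat1 and Neat1 were at 67.7 and 68.2 FPKM in this kidney, against 18.1 to 31.1 and 29.4 to 36.3 FPKM in the others. The part that RNA quality or library preparation had in this was not tested, and some of the results below that rest on Ctrl replicate 3 are given with and without it.

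The 30 genes with the highest mean FPKM comprised 15 genes of the mitochondrial genome, 7 chromosome 1 pseudogenes that are copies of mitochondrial genes, and 8 other nuclear genes. The top 10, 30 and 100 genes held 29.8% ± 1.38, 45.6% ± 2.94 and 55.2% ± 2.19 of all FPKM. The same 30 genes came out in 5 of the 6 kidneys ranked alone, and 28 of the 30 in Ctrl replicate 3. Ranked by estimated counts, which are not divided by length, 19 of the 30 were shared. The plot of these genes shows how far the leading genes were from the rest.

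**Figure D1:**
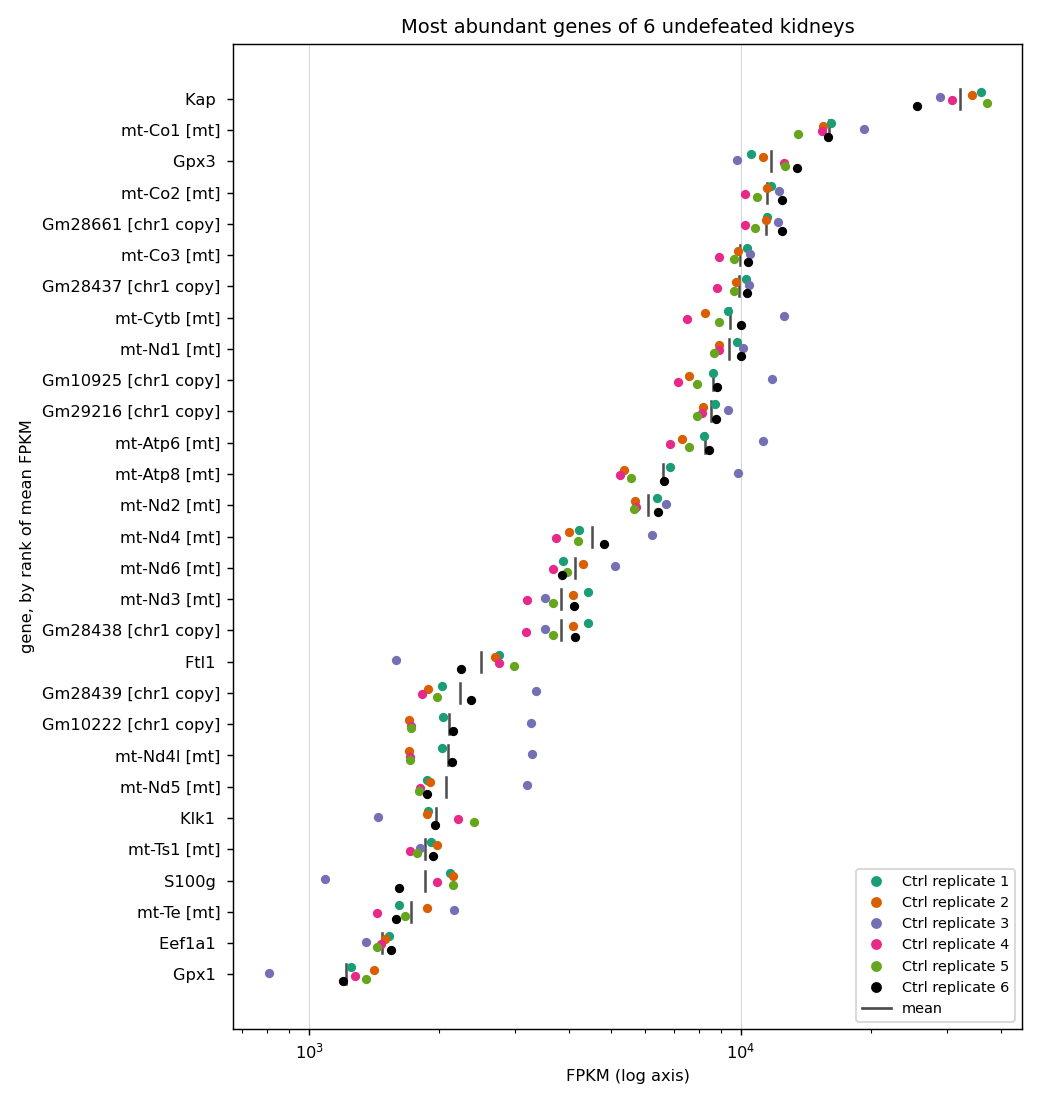
FPKM on a log axis for genes among the 30 with the highest mean, ordered by rank, with a point for each of the 6 Ctrl mice and a bar at the mean; [mt] marks genes of the mitochondrial genome and [chr1 copy] their chromosome 1 pseudogenes. Kap lies above every other gene in each mouse, and Ctrl replicate 3 lies to the right for mt-Nd5, mt-Nd4l and mt-Atp8 and to the left for Ftl1, S100g and Gpx1.

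Kap (ENSMUSG00000032758, GRCm38 chr6:133849851-133853762, minus strand), which encodes the kidney androgen-regulated protein of the mouse proximal tubule, had the highest FPKM of all genes in all 6 kidneys. By mean estimated counts it came after mt-Co1, at 2003720 against 2178300. It ranged from 25573 FPKM in Ctrl replicate 6 over a median of 32558 to 37061 in Ctrl replicate 5, with a mean of 32107 ± 4447, and alone held 7.35% of all FPKM. Gpx3 (ENSMUSG00000018339, chr11:54902453-54910377, plus strand) followed among nuclear genes. It encodes the plasma glutathione peroxidase, a selenoprotein that the proximal tubule secretes into the blood. Its levels were 9796 FPKM at the lowest, 11909 at the median and 13520 at the highest, so that Kap was 2.74 times as abundant on the mean FPKM and the 6 values of one gene did not overlap those of the other. Without Ctrl replicate 3 the means were 32744 ± 4656 for Kap and 12100 ± 1201 for Gpx3 (n = 5).

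Other members of the 8 nuclear genes had lower levels and served several functions. Ftl1, the light chain of the iron store ferritin, had 1587, 2721 and 2977 FPKM at the lowest, the median and the highest. Klk1, a kallikrein released into urine by the connecting tubule, had 1447, 1919 and 2411 FPKM. In both of these, and in S100g (1089, 2051 and 2156 FPKM), which encodes the cytosolic calcium-binding protein calbindin-D9k, the lowest kidney was Ctrl replicate 3. Without it the mean of Klk1 was 2068 ± 235 in place of 1965 ± 330 FPKM, and that of S100g 2005 ± 231 in place of 1852 ± 427 (n = 5). Eef1a1, a translation elongation factor, varied least, from 1355 to 1550 FPKM, and Gpx1, the cytosolic glutathione peroxidase, ranged from 808 FPKM in Ctrl replicate 3 to 1411.

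Among nuclear protein-coding genes alone, the list of the 30 most abundant was made after the values were seen. It added to the genes above Ass1 for arginine synthesis (1126 ± 161 FPKM), Miox for inositol breakdown (1060 ± 146), Cyp4b1 (1041 ± 227), the steroid reductase gene Akr1c21 (910 ± 88.2), the collectrin gene Cltrn, an amino acid transporter partner (853 ± 49.5), and the protease gene Napsa (763 ± 82.0). Umod was its only marker of the thick ascending limb. Slc34a1, Slc22a12 and Slc27a2, at 789 ± 103, 781 ± 106 and 738 ± 43.7 FPKM, were its only members of the solute carrier symbols.

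The 37 genes of the mitochondrial genome held 23.0% ± 2.73 of all FPKM. The share was 22.6% in Ctrl replicate 1, 21.5% in replicate 2, 28.1% in replicate 3, 20.9% in replicate 4, 21.1% in replicate 5 and 23.8% in replicate 6, so that replicate 3 lay above all others, and without it the mean was 22.001%. The 13 protein-coding genes, which encode subunits of the respiratory chain and of ATP synthase, accounted for 21.5% ± 2.74. The 22 tRNA genes held 1.34% ± 0.0912 and the 2 rRNA genes 0.166% ± 0.0178 in these poly(A) libraries. Of estimated counts, which are not divided by length, the mitochondrial share was 10.3% ± 1.17 and that of the tRNA genes 0.0473% ± 0.00350.

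By its own listed FPKM, mt-Co1 (chromosome MT, 5328 to 6872), subunit I of cytochrome c oxidase, led the mitochondrial genome. It had 13590, 15663 and 19316 FPKM at the lowest, median and highest. The other cytochrome c oxidase genes mt-Co2 and mt-Co3 had medians of 11626 and 10071 FPKM, mt-Cytb of complex III had 9118, and mt-Atp6 and mt-Atp8 of ATP synthase had 7894 and 6100. Genes of complex I ranged widely, from a mean of 9402 ± 652 FPKM for mt-Nd1 to 2075 ± 551 for mt-Nd5. mt-Nd5 was at 3197 FPKM in Ctrl replicate 3 and at 1796 to 1904 in the other 5 kidneys. These levels leave out the chromosome 1 copies described below, of which those of mt-Co2 and mt-Co3 had means of 11424 and 9874 FPKM. The order of the mitochondrial genes therefore depends on where the reads of the copies belong. mt-Atp8 with mt-Atp6 and mt-Nd4l with mt-Nd4 overlap on the genome, and mt-Nd6 and mt-Te lie on the other strand from most mitochondrial genes, so that their separate values depend on how the reads were divided. The sources used here do not say how this was done. Among tRNA genes, mt-Ts1 (1855 ± 104 FPKM) and mt-Te (1724 ± 258) reached the top 30 by mean FPKM, although all 22 together held 0.0473% of counts. By contrast, mt-Tv, at 0.324 to 1.43 FPKM and 0.916 on average, was the only gene of the mitochondrial genome with a mean under 1 FPKM.

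On chromosome 1, 7 pseudogenes in a row (GRCm38 chr1:24611535-24616197) matched mitochondrial genes almost letter for letter, 5 of them at 100% identity and the others at 99.7% and 99.8%. The coding sequence of mt-Co2 and its chromosome 1 copy Gm28661, taken from GENCODE M21 (GRCm38), had 0 mismatches over 681 bases, and the opening 90 bases of both are shown because reads from them carry no letter that separates the genes.
mt-Co2: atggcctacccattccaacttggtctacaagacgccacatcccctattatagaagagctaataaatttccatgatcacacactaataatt
Gm28661: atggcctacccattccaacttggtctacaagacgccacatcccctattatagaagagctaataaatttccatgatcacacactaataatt
Gm28661 was assigned 10200, 11452 and 12419 FPKM at the lowest, median and highest, against 10231, 11626 and 12444 for mt-Co2, and its mean count was 98.8% of that of mt-Co2. The copies of mt-Co3, mt-Atp6, mt-Nd3 and mt-Nd4l (Gm28437, Gm10925, Gm28438 and Gm10222) had 99.4%, 104%, 99.1% and 99.3% of the counts of their matches. Gm29216 and Gm28439, which hold only part of mt-Co1 and mt-Nd4, had 16.9% and 31.4%. By contrast, 3 chromosome 2 copies that matched at 95.9% to 97.6% of bases had 13.01 to 41.45 FPKM and at most 0.353% of the counts of their matches. With these 10 pseudogenes counted as mitochondrial, the share of FPKM was 33.7% ± 3.82 and that of counts 13.8% ± 1.49.

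**Figure D2:**
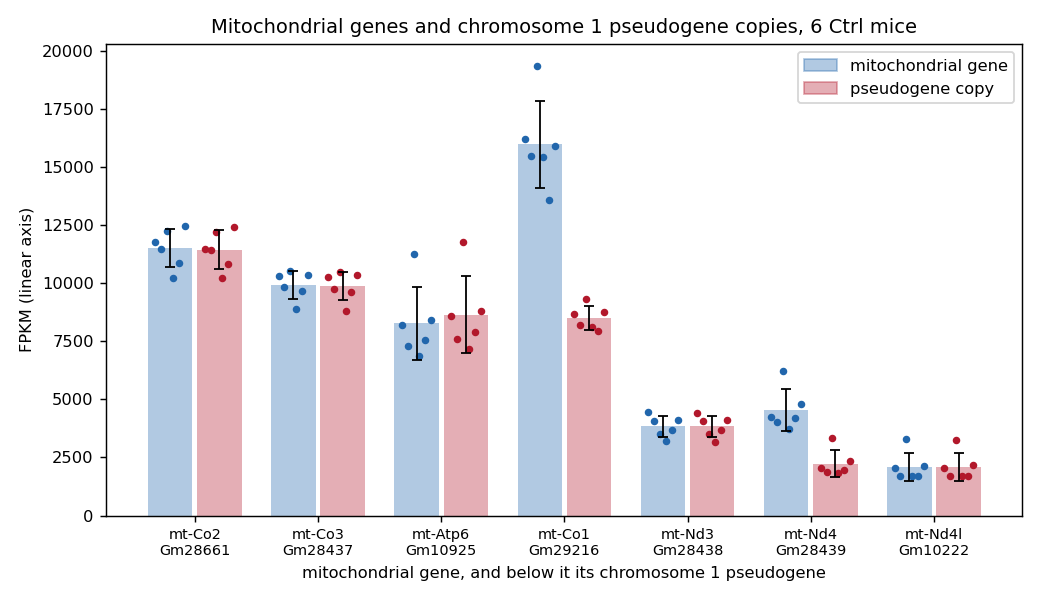
Mean FPKM (bars, linear axis from 0) with SD (error bars) and the 6 Ctrl mice (points) for 7 mitochondrial genes in blue and their chromosome 1 pseudogene copies in red. The copies of mt-Co2, mt-Co3, mt-Atp6, mt-Nd3 and mt-Nd4l, with 98.8% to 104% of the counts of their matches, have bars close in height to them, and the copies of mt-Co1 and mt-Nd4 are lower than their matches.

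Near-identical copies were also listed beside nuclear genes. Of the 810 pseudogenes at 1 FPKM or more, 807 had a transcript in GENCODE M21, and 718 of these matched a protein-coding transcript at 95% identity or more over at least 80% of their length. They were copies of 404 genes. Gapdh, the glycolytic enzyme gene often used as a reference, was listed at 10.4 to 12.7 FPKM in 5 kidneys and at 43.3 FPKM in Ctrl replicate 5, while 27 near-identical pseudogenes summed to 1847 ± 198 FPKM. Without Ctrl replicate 5 the Gapdh mean was 11.2 ± 0.862 FPKM (n = 5). Ass1, at 1126 FPKM, had a single copy, Gm5424, with 457 ± 61.5 FPKM. Rpl21 and Rpl7a, genes of ribosomal proteins, had 11.2 ± 2.05 and 165 ± 72.8 FPKM beside 595 ± 64.1 and 481 ± 82.2 in 17 and 13 copies, and both were lowest in Ctrl replicate 3, at 7.84 and 53.7 FPKM. The listed levels of these genes are uncertain, since it is not stated how reads that match both a gene and its copy were assigned.

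The nuclear genes of the respiratory chain, by symbol, moved against the mitochondrial ones in Ctrl replicate 3. Of 84 such genes, 83 reached 1 FPKM and 55 reached 100 FPKM, and the median was 133 FPKM. Their sum was 15481 to 17654 FPKM in 5 kidneys and 10262 in Ctrl replicate 3. The 13 mitochondrial protein genes summed to 82876 to 97012 FPKM in those 5 kidneys and to 113976 in Ctrl replicate 3, so that the ratio of mitochondrial to nuclear sums was 5.00 to 6.01 in 5 kidneys and 11.1 in that one. Cytosolic ribosomal proteins (81 of 82 at 1 FPKM or more) behaved like the nuclear respiratory chain, with 13902 to 16668 FPKM in 5 kidneys and 8619 in Ctrl replicate 3. The ribosomal protein genes had a median transcript length of 711.5 bases and the nuclear respiratory chain genes of 648 bases. At such lengths, nuclear protein-coding genes were low in this library. Gm10222, the 294-base copy of mt-Nd4l, went the other way, at 3270 FPKM in Ctrl replicate 3 against 1704.5 to 2155 in the other kidneys.

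The 4 marker genes of the kidney were all present. Slc34a1 (ENSMUSG00000021490, chr13:55398187-55415592, plus strand), the sodium-phosphate cotransporter of the proximal brush border, had 678, 775 and 912 FPKM at the lowest, median and highest and ranked 45 among all genes. Umod (ENSMUSG00000030963, chr7:119462711-119479282, minus strand), the gene of the urinary protein uromodulin, had 776, 904 and 1037 FPKM and ranked 36. Lrp2 (ENSMUSG00000027070, chr2:69424340-69586065, minus strand), the endocytic receptor megalin, had 58.8, 61.8 and 93.7 FPKM and ranked 711. Aqp2 (ENSMUSG00000023013, chr15:99579055-99584547, plus strand), the vasopressin-controlled water channel of principal cells, had 58.3, 123 and 357 FPKM and ranked 321. The coefficient of variation was 13.1% for Slc34a1 and 11.5% for Umod. For Lrp2 it was 19.9%, and Ctrl replicate 3, its highest kidney, was the only value above 72.2 FPKM. Aqp2 varied most, at 72.0%, with 145 FPKM or less in 5 kidneys and 357 in Ctrl replicate 4, and its mean of 149 ± 107 FPKM became 107 ± 36.2 without that mouse (n = 5).

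Sequence at the transcript start is shown for the most abundant gene, Kap, and for 3 of the 4 markers, as 100 bases before and 50 bases from the start (RefSeq, GRCm38.p6). The first listed RefSeq start of each gene was used, and the distances hold for that start only. For Slc34a1 it lies within the gene, downstream of the listed beginning at chr13:55398187. Capitals mark the letters TATAAA, those of a TATA box, and GTTAAT, those of the core of hepatocyte nuclear factor 1 sites, on either strand.
Kap, chr6:133853618-133853767, minus strand: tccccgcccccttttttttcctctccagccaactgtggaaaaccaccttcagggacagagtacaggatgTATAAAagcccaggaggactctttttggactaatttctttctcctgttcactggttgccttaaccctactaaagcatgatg
Slc34a1, chr13:55399548-55399697, plus strand: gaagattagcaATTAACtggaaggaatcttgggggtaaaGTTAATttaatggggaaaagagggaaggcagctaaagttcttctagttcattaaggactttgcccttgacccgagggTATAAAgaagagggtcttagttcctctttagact
Umod, chr7:119479213-119479362, minus strand: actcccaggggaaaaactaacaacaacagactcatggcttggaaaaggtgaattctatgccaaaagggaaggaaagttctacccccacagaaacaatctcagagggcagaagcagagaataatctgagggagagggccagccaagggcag
Aqp2, chr15:99578956-99579105, plus strand: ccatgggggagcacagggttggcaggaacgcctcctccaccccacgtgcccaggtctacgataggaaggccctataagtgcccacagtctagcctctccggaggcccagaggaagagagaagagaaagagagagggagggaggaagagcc
Kap held TATAAA 31 bases before its start. Slc34a1 held GTTAAT or its reverse complement 89 and 61 bases before the start and TATAAA 16 bases after it. No capitals appear in the windows of Umod and Aqp2. Among 32851 start windows of the same length, 6.94% held TATAAA and 3.23% GTTAAT. In 97 windows of 78 of the 100 most abundant nuclear protein-coding genes the shares were 15.5% and 5.15%, and in 651 windows of 582 genes at 0 FPKM in all 6 kidneys they were 12.7% and 3.23%. GTTAAT stood in 3 of 15 windows of the proximal tubule genes, 1 of 10 of the thick ascending limb genes and 0 of 8 of the principal cell genes.

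Markers of the proximal tubule were the most completely represented of the epithelial lists. All 12 markers of segments S1 and S2 exceeded 10 FPKM, and their sum was between 1287 and 1623 FPKM. Slc34a1 alone made up 789 FPKM of the mean of 1442 ± 154, followed by Slc22a6, the organic anion transporter OAT1, with 127, 170 and 212 FPKM at the lowest, median and highest, and by Slc5a2, the low-affinity glucose transporter SGLT2, with 103, 123 and 127 FPKM. All 7 markers of segment S3 also exceeded 10 FPKM and summed to 595 ± 58.3 FPKM. They were led by Slc7a13, a transporter of acidic amino acids and cystine, with 227, 289 and 334 FPKM, and by Slc22a7 with 67.7, 105 and 130 FPKM. Atp11a, a lipid flippase gene of the S3 list, was at 127 FPKM in Ctrl replicate 3 and at 61.8 to 76.8 FPKM in the others.

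In the thick ascending limb list, all 11 genes exceeded 1 FPKM and the sum was 1313 ± 175 FPKM, of which Umod gave 895. Without Ctrl replicate 3, the highest kidney, the sum was 1265 ± 143 (n = 5). Slc12a1, the furosemide-sensitive salt transporter NKCC2, was at 56.9 FPKM in Ctrl replicate 4, 59.0 in replicate 5, 86.7 in replicate 2, 110 in replicate 1, 116 in replicate 6 and 181 in replicate 3. It varied more than Umod did. Without Ctrl replicate 3 its mean of 102 ± 46.1 FPKM was 85.7 ± 27.6 (n = 5). Ppp1r1a, a phosphatase inhibitor gene of this segment, had 99.0, 124 and 153 FPKM. The thin limb list summed to 109 ± 51.5 FPKM, most of it from the small heat shock protein gene Cryab, and the 3 macula densa markers Nos1, Ptgs2 and Pappa2 were at 0.0529, 0.121 and 0.0153 FPKM on average. Nos1 fell to 0.0350 without Ctrl replicate 3 and Ptgs2 to 0.0745 without replicate 4.

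Downstream segments differed widely in their summed levels. The connecting tubule list had the highest FPKM sum of all cell lists, 3888 ± 710, but Klk1 and S100g gave nearly all of it, and the third gene, the calcium buffer Calb1, was at 64.3 ± 8.40 FPKM. In Ctrl replicate 3, where Klk1 and S100g were lowest, the sum was 2604 FPKM, against 3626 to 4640 in the other kidneys, whose mean was 4145 ± 367 (n = 5). The top place depended on the scale used. By estimated counts the connecting tubule list held 0.397%, less than the 0.858% of the S1/S2 list and the 0.504% of the thick ascending limb list. The distal convoluted tubule list summed to 92.7 ± 12.3 FPKM and was led by Slc12a3, the thiazide-sensitive transporter NCC, with 85.5 FPKM in Ctrl replicate 3 and 50.3 to 60.1 in the others. Pvalb, a calcium-binding protein gene of its early part, had 17.1, 28.4 and 36.3 FPKM.

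Principal cell genes summed to 289 ± 121 FPKM, with 525 FPKM in Ctrl replicate 4 and 186 to 291 in the others, and without that mouse the mean was 242 ± 42.0 (n = 5). Most of the difference lay in Aqp2. Hsd11b2, which inactivates glucocorticoids in mineralocorticoid-responsive cells, was at 50.0 FPKM in Ctrl replicate 4, within the range of 47.6 to 65.9 FPKM, and Aqp3, a basolateral water channel, reached 43.6 FPKM there against 32.7 to 37.5. Intercalated cell genes, which secrete acid or base, summed to 157 ± 10.2 FPKM, a coefficient of variation of 6.51%, the lowest of the 22 cell lists. They were led by the ammonia transporter gene Rhcg (34.3, 36.2 and 43.1 FPKM), the proton pump subunit gene Atp6v1g3 (24.1, 25.7 and 29.7) and Slc26a4, the chloride-bicarbonate exchanger pendrin (15.9, 18.3 and 18.9).

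**Figure D3:**
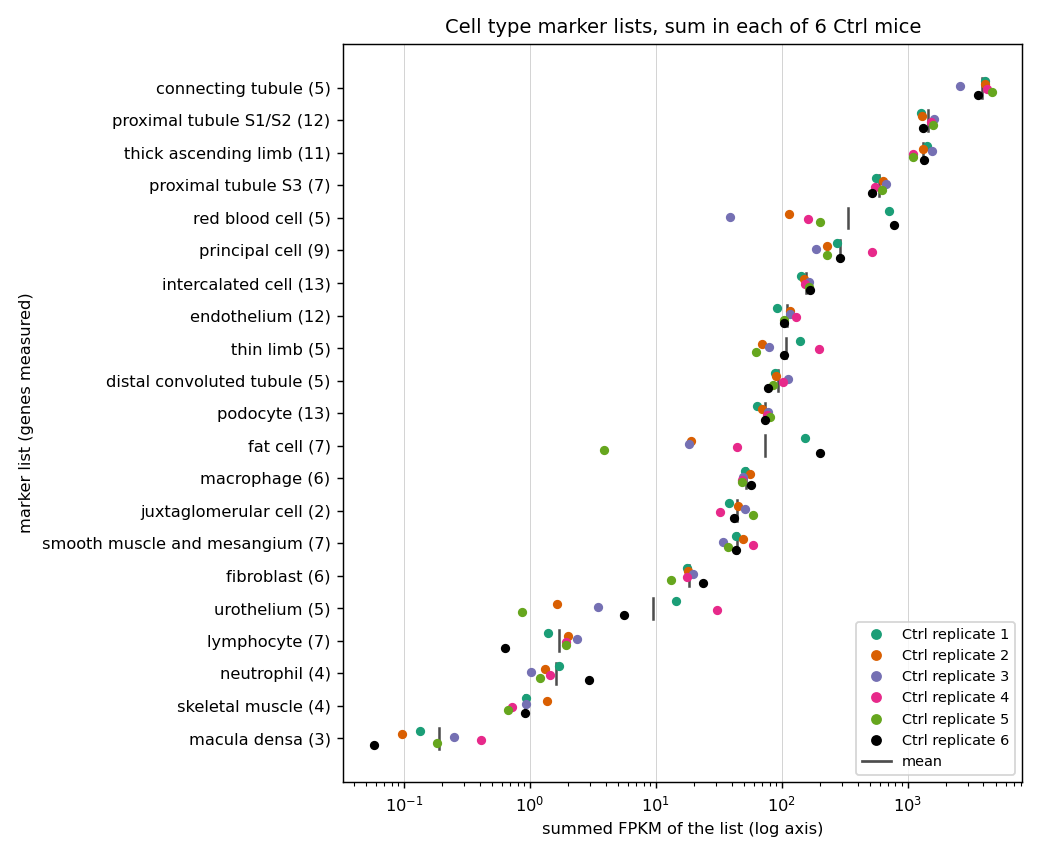
Summed FPKM of each of 21 marker lists on a log axis, ordered by mean, with a point for each Ctrl mouse and a bar at the mean; the adrenal list, at or near 0, is left out. Most tubule lists vary little between mice, whereas red blood cell, fat cell and urothelium lists spread over more than 10-fold.

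Glomerular and vascular genes were low in the whole organ. The 13 podocyte markers summed to 73.7 ± 6.29 FPKM and 2 of them exceeded 10 FPKM, among them Podxl (23.6 ± 3.49). Nphs1, encoding nephrin of the slit diaphragm, had 3.80, 4.05 and 4.65 FPKM. Endothelial markers summed to 111 ± 13.3 FPKM, led by Plvap, a protein of fenestrae and caveolae, with 30.9, 38.1 and 51.9 FPKM. Smooth muscle and mesangial markers summed to 44.4 ± 8.65 FPKM, fibroblast markers to 18.4 ± 3.50 and macrophage markers to 51.7 ± 4.04, with C1qa and C1qb at 16.8 ± 1.55 and 17.9 ± 2.26 FPKM. In a whole organ, fewer cells of a type and less RNA per cell cannot be told apart.

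Of the cell lists above 0 in every kidney, those of fat, urothelium and red blood cells had the widest ranges between mice, with the highest sum 52.5, 35.9 and 19.97 times the lowest. The 5 red blood cell markers summed to 712 FPKM in Ctrl replicate 1, 114 in replicate 2, 38.7 in replicate 3, 162 in replicate 4, 201 in replicate 5 and 772 in replicate 6. Hbb-bs, a beta globin gene, accounted for 328 and 329 FPKM of this in replicates 1 and 6 and for 15.5 to 83.5 FPKM in the other kidneys. Fat cell markers were highest in the same kidneys, with sums of 152 and 203 FPKM in replicates 1 and 6 and 3.87 to 44.2 in the others. Cfd, the secreted protease adipsin of adipocytes, was at 114 and 139 FPKM there and at 3.11 to 36.02 elsewhere, and Cidea, a lipid droplet gene of brown fat, at 11.4 and 25.8 against 0.0945 to 1.496. Without Ctrl replicate 6 the mean of the fat list fell from 73.5 to 47.5 FPKM.

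Urothelial genes, expressed by the lining of the renal pelvis, summed to 30.8 FPKM in Ctrl replicate 4, 14.3 in replicate 1, 5.61 in replicate 6, 3.50 in replicate 3, 1.65 in replicate 2 and 0.859 in replicate 5. Without Ctrl replicate 4 their mean fell from 9.46 to 5.19 FPKM. Psca, a surface protein gene of urothelium and among the most variable genes, had 51.6 FPKM in Ctrl replicate 4 and 0.0476 to 12.98 in the others, and a mean of 4.12 in place of 12.04 FPKM without that kidney. Upk3a, an uroplakin gene, was at 11.97 FPKM in Ctrl replicate 4 against 0.0291 to 4.05. Genes of the inner medulla moved in part with it. Ctrl replicate 4 had the highest Cryab (173 FPKM, against 48.2 to 101) and Akr1b3 (35.7 against 5.39 to 20.4), the aldose reductase that makes sorbitol in the medulla, as well as the highest Aqp2. Slc14a2, the urea transporter of the inner medullary collecting duct and thin limb, did not follow this order, with 12.6 FPKM in replicate 1, 10.2 in replicate 6, 9.53 in replicate 3, 5.36 in replicate 2, 4.05 in replicate 4 and 0.331 in replicate 5. Whether the amounts of medulla, pelvis, blood and fat differed between the samples was not tested.

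**Figure D4:**
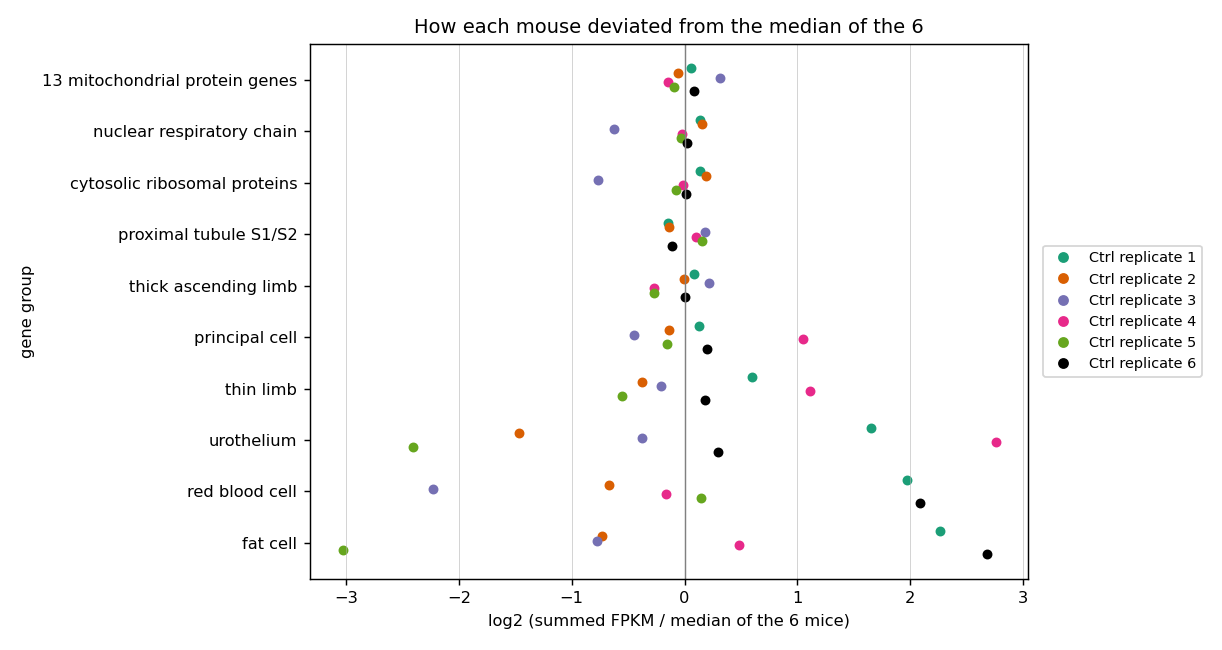
Log2 of the summed FPKM of 10 gene groups in each Ctrl mouse over the median of the 6 mice, with a point for each mouse. Ctrl replicate 3 deviates in the nuclear respiratory chain and ribosomal proteins, replicate 4 in principal cell, thin limb and urothelium genes, and replicates 1 and 6 in red blood cell and fat cell genes.

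Other tissues next to the kidney left little or no trace. Of the adrenal gland, Cyp11b2 and Th were listed at 0 in all 6 kidneys, and Cyp11b1, Cyp11a1 and Cyp21a1 were above 0 in a single kidney each, at 0.0345 FPKM or less. The 4 skeletal muscle markers summed to 0.922 ± 0.248 FPKM. The 7 lymphocyte markers summed to 1.71 ± 0.618 FPKM, with none at 1 FPKM, and the 4 neutrophil markers with a row in the table to 1.61 ± 0.695, which S100a9 led with 1.06 ± 0.516 FPKM.

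Transport genes were led by the proximal tubule and by the sodium pump. Of 373 genes with solute carrier symbols, 247 reached 1 FPKM and 20 reached 100 FPKM, and together they held 2.01% ± 0.115 of all FPKM. The sodium pump, which drives uptake in every segment, includes the subunits Atp1b1, with 472, 510 and 592 FPKM at the lowest, median and highest, and Fxyd2, with 361, 533 and 571. The 14 genes of the sodium list summed to 1855 ± 77.4 FPKM, with a coefficient of variation of 4.17%.

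Of the organic ion transporters, 22 of 23 reached 1 FPKM and 7 reached 100 FPKM, with a sum of 2533 ± 228 FPKM, the highest of the 9 transport lists on this scale. By estimated counts the sodium list was higher, at 0.914% against 0.844%. Slc22a12, the urate transporter URAT1, had 626, 777 and 903 FPKM, and Slc22a18 had 209, 228 and 281. Their order over mice was not the same, since Ctrl replicate 6 was lowest for Slc22a12 and replicate 3 for Slc22a18. Slc22a6 exceeded Slc22a8, the anion transporter OAT3, in 6 of 6 kidneys by 2.07-fold (mean log2 ratio 1.05 ± 0.17, adjusted p = 0.0385, exact two-sided sign-flip permutation test over mice).

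Glucose and phosphate carriers each rested on a single dominant gene. Slc5a2 exceeded its high-affinity relative Slc5a1 (11.5, 12.7 and 13.8 FPKM) by 9.36-fold, and Slc34a1 exceeded Slc34a3 (14.7, 16.9 and 19.4 FPKM) by 46.6-fold, both in 6 of 6 kidneys (adjusted p = 0.0385 for each by the exact sign-flip permutation test). On the basolateral side, Slc2a2, encoding GLUT2, had 11.5, 14.2 and 19.6 FPKM, and Slc2a1, encoding GLUT1, had 9.27, 9.93 and 12.4. Slc2a2 was higher in 5 of 6 kidneys with a log2 ratio of 0.52 ± 0.36, which did not pass (adjusted p = 0.0625 in the exact test). Slc2a5, the fructose transporter, was at 14.5, 15.4 and 17.4 FPKM. The glucose and fructose list summed to 181 ± 8.19 FPKM and the phosphate list to 819 ± 105.

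For amino acids, 17 of 19 genes reached 1 FPKM and the sum was 1014 ± 47.9 FPKM, led by Slc7a13, by the cystine transporter subunit Slc3a1 (210, 238 and 264 FPKM) and by the neutral amino acid transporter Slc6a18 (119, 130 and 149). Slc3a1 exceeded Slc7a9, the light chain with which it forms a cystine transporter, in 6 of 6 kidneys. The log2 ratio of Slc7a9 over Slc3a1 was -2.67 ± 0.22 (adjusted p = 0.0385, exact sign-flip permutation test). Mono- and dicarboxylate and sulfate carriers summed to 236 ± 23.3 FPKM, led by Slc13a3 (93.8 ± 12.97), Slc5a8 (37.3 ± 7.56) and Slc13a1 (31.9 ± 1.71). Acid and base genes summed to 426 ± 21.3, with the carbonic anhydrases Car4 and Car2 at 116 ± 19.8 and 111 ± 12.5 FPKM. Car15, another carbonic anhydrase gene, was at 31.2 FPKM in Ctrl replicate 3 and at 57.7 to 60.4 in the other 5 kidneys.

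Water channels summed to 551 ± 105 FPKM and 7 of 11 reached 1 FPKM. Aqp1, of the proximal tubule and thin limb, had 293, 347 and 375 FPKM, and exceeded Aqp2 in 5 of 6 kidneys, all but Ctrl replicate 4 (log2 ratio 1.43 ± 0.90, adjusted p = 0.0625 in the exact test). Aqp2 exceeded Aqp3 in all 6 (log2 ratio 1.80 ± 0.77, adjusted p = 0.0385 in the exact test). Aqp12 was listed at 0 in each kidney. The sodium channel subunits Scnn1b and Scnn1g had 14.3 ± 1.24 and 9.18 ± 1.21 FPKM, with Scnn1b higher in 6 of 6 kidneys (log2 ratio 0.64 ± 0.12, adjusted p = 0.0385 in the exact test). The urea list of Slc14a1 and Slc14a2 summed to 7.61 ± 4.74.

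Of the 16 gene pairs compared, 13 passed at an adjusted p of 0.0385, which rests on the smallest p that 6 mice allow, 0.03125. Beside those named above, megalin exceeded its partner cubilin, Lrp2 over Cubn, by a log2 ratio of 2.07 ± 0.09. Umod exceeded Slc12a1 by 3.25 ± 0.48, and pendrin, Slc26a4, exceeded the anion exchanger Slc4a1 in all 6 kidneys. The pair Slc12a1 and Slc12a3 did not pass, with Slc12a1 higher in 5 of 6 kidneys (log2 ratio 0.69 ± 0.54, adjusted p = 0.0625 in the exact test). Across the 6 kidneys, the shares of S1/S2, S3, thick ascending limb and principal cell lists were not shown to move together. By exact permutation, 0 of 6 pairs passed, and 0 had an unadjusted p under 0.05. The pair of S1/S2 and S3 had Pearson's r = 0.61 (permutation p = 0.151, adjusted 0.667) and Spearman's rho = 0.71 (permutation p = 0.136, adjusted 0.408). Without the 2 mice farthest from the median, replicates 1 and 3, its r was 0.20. For some other pairs r became more negative without 1 or 2 mice. For S1/S2 with thick ascending limb, r went from -0.05 to -0.97 without replicates 1 and 3, and it was -0.98 without replicate 3 alone (adjusted p = 0.25 in the exact permutation test). For thick ascending limb with principal cells, r went from -0.55 to -0.92 without replicates 3 and 5. For S3 with principal cells, r went from -0.49 to -0.996 without replicate 4 alone (adjusted p = 0.1 in the exact permutation test). These values rest on 4 or 5 mice, and with 5 mice a single pair cannot pass after adjustment over the 6 pairs.

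Genes of glucose metabolism were abundant in every kidney. All 5 gluconeogenesis genes exceeded 100 FPKM and their sum was 3068 ± 268 FPKM. Fbp1, the fructose bisphosphatase, had 449, 499 and 573 FPKM, and Pck1, the phosphoenolpyruvate carboxykinase that commits to glucose synthesis, had 267, 355 and 413. Glycolysis genes summed to 2007 ± 178 FPKM, with Ldhb at 603, 695 and 756, Tpi1 at 212, 322 and 344 and Aldoa at 217, 264 and 285 FPKM. This sum holds Gapdh at its own listed level and not the 1847 FPKM of its 27 near-identical copies, so that whether it lies below or above the gluconeogenesis sum depends on where those reads belong.

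Fuel oxidation was represented in full. All 19 fatty acid oxidation genes exceeded 10 FPKM, and 9 exceeded 100 FPKM, with a sum of 2093 ± 145. Etfb, which passes electrons from fatty acids to the respiratory chain, was at 243 FPKM in Ctrl replicate 3 and at 389 to 469 in the others, the peroxisomal Ehhadh had 190, 239 and 245 FPKM, and Acadm, the medium-chain dehydrogenase, had 176, 196 and 216. All 18 citric acid cycle genes exceeded 10 FPKM. Their sum was 1539 FPKM in Ctrl replicate 3 and 1705 to 1751 in the other kidneys. The succinate dehydrogenase genes Sdhd (179 FPKM in Ctrl replicate 3 against 219 to 234) and Sdhb (105 against 181 to 225) were low in this kidney. Ketone body genes summed to 613 ± 32.4 FPKM, with Oxct1, the enzyme that uses ketone bodies, at 292, 304 and 317 FPKM, a coefficient of variation of 3.50%.

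Amino acid, creatine and ammonia genes summed to 2215 ± 198 FPKM, with Ass1 and Odc1, the entry enzyme of polyamine synthesis, among its leading members. Odc1 ranged from 104 FPKM in Ctrl replicate 6 over a median of 236 to 333 in replicate 4. Of the inositol, fructose and sorbitol enzymes, Miox had 780, 1117 and 1157 FPKM, Sord 586, 657 and 704, and Khk 234, 359 and 408, with Ctrl replicate 3 the lowest in each, and the list summed to 2067 ± 238 FPKM. Antioxidant and metal-binding genes summed to 15501 ± 1785 FPKM, the highest of all lists, of which Gpx3 made up 11716. All 11 exceeded 10 FPKM. Prdx5, a peroxiredoxin, had 511, 892 and 1055 FPKM, the lowest in Ctrl replicate 3. The metallothionein genes Mt1 and Mt2 had 45.4, 53.3 and 84.2 and 27.0, 31.8 and 55.1 FPKM. Mt1 exceeded Mt2 in 6 of 6 kidneys (log2 ratio 0.64 ± 0.24, adjusted p = 0.0385, exact sign-flip permutation test).

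The endocrine genes of the kidney were far apart in level. The 6 genes of the hormone and vitamin D list summed to 156 ± 26.2 FPKM. Kl, the co-receptor klotho for the phosphate hormone FGF23, had 38.3, 45.6 and 61.5 FPKM, Ren1, renin, had 30.4, 41.3 and 56.7, and the juxtaglomerular list of Ren1 and Akr1b7 summed to 44.5 ± 9.64. Cyp24a1, which degrades active vitamin D, was at 35.03 to 42.92 FPKM in 5 kidneys and at 12.6 in Ctrl replicate 6. Cyp27b1, which makes it, had 0.938, 1.33 and 2.20 FPKM, and the vitamin D receptor gene Vdr had 24.2, 29.7 and 41.8. Epo, erythropoietin, was barely seen, with 0.0446 FPKM or less in 5 kidneys and 0.378 in Ctrl replicate 5, and its mean of 0.0844 fell to 0.0257 FPKM without that kidney.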

How the data were processed

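Right kidneys of 18 mice in 3 groups of 6 were sequenced as poly(A) RNA with paired ends. After fastp, the authors mapped to GRCm38 by HISAT-3N and deposited, from StringTie, an FPKM for every gene in every mouse. The submitters' processing notes name cutadapt 1.9, HISAT2 2.0.4, UMI-tools and StringTie 1.3.4d, without role or order. Beside FPKM, the authors deposited estimated counts, of which the sources used here give neither tool nor strand setting. Of whole numbers from 1 to 9, a count of 1 was the most frequent (median of 750.5 genes). Local peaks followed at 4 and 8 counts (medians of 700.5 and 353 genes), so that a fragment may be worth several counts. No counting interval is given.

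Only the 6 Ctrl columns were used. Genes were ranked by mean FPKM, and each of 40 lists (22 of cell types, 9 of transporters, 9 of metabolism, 345 entries, of which Mpo had no row) was summed per mouse. The 16 pairs were tested by an exact two-sided sign-flip permutation test of the per-mouse log2 FPKM ratio, without pseudocount, and 6 correlations of list shares by exact permutation, each adjusted by Benjamini-Hochberg. P values measure the spread between 6 mice. Pseudogenes were matched to GENCODE M21 transcripts with BLAST+ 2.17.0 (95% identity, 80% of length; 90% and 100 bases for mitochondrial matches). Transcript length was the median of a gene's protein-coding transcripts in GENCODE M21. Python 3.11.15, NumPy 2.4.6, pandas 2.3.3, SciPy 1.17.1 and matplotlib 3.10.9 were used, and scripts were tested on simulated data. The text names the 30 most abundant genes, the 3 leading members of each list and any at 0, both genes of each pair, the mitochondrial genome, the 10 most variable genes at 10 FPKM or more, the 4 markers and the hormone genes. Of these, a few genes are not reported here. Other genes were chosen after their values were seen. Members and lists were chosen with earlier results of these data known. The alternatives tried were other FPKM minimums, counts in place of FPKM, rankings on a log scale with pseudocounts of 0.1 and 1, other denominators, lists without their leading member and leaving out each mouse. No per-sample column was left unassigned.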

Additional observations from a re-analysis of the deposited data

Results flagged for a closer look

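Of 176 named genes and 40 list sums, 35 genes and 4 lists had a kidney whose gap to its nearest neighbour was too large a part of the whole range by Dixon's 95% critical value for 6 samples, and chance gives about 1 such group in 20. The named genes include the 10 most variable ones, chosen by these same values, and some genes were at 0 in 5 kidneys. The chance rate therefore cannot be set against the number flagged. Causes were not tested.

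Ctrl replicate 3 was the kidney apart most often, with 13 genes high and 7 low. It was high for the mitochondrial genes mt-Atp6 (11237 FPKM), mt-Atp8 (9872), mt-Nd4l (3283) and mt-Nd5 (3197) and for the pseudogene copies Gm10925 (11787), Gm28439 (3348) and Gm10222 (3270). It was also high for Atp11a (127 FPKM), Slc12a3 (85.5), Slc5a8 (52.4), Klhl3 (6.38, a regulator of Slc12a3 in the distal convoluted tubule), Cd8a (1.12) and Nos1 (0.142). It was low for Gpx1 (808 FPKM), Miox (780.0), Fxyd2 (361), Etfb (243), Sdhd (179), Sdhb (105) and Car15 (31.2), and for the sums of the citric acid cycle list (1539) and the sugar alcohol and fructose list (1605).

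Ctrl replicate 4 was high for Aqp2 (357 FPKM), Psca (51.6), Upk3a (11.97) and Ptgs2 (0.351) and for the principal cell list (525). Ctrl replicate 5 was high for Gapdh (43.3 FPKM), Nphs1 (4.65), Epo (0.378), Cyp21a1 (0.0345) and Cyp11b1 (0.0103), and Ctrl replicate 2 for Ly6g (0.171) and Cyp11a1 (0.0261). The adrenal genes and Ly6g were listed at 0 in the other 5 kidneys.

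Ctrl replicate 6 was high for the interferon-induced genes Irf7 (34.4 FPKM, against 4.96 to 6.53 in the others) and Ifit3 (44.4, against 7.39 to 18.7), for the metallothionein gene Mt1 (84.2, against 45.4 to 59.3) and for the neutrophil list (2.95), and low for Cyp24a1 (12.6). Without this kidney the mean of Irf7 was 5.61 in place of 10.4 FPKM and that of Ifit3 11.03 in place of 16.6.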

How the results depend on the processing

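The number of genes detected was 18692 at a mean of 0.1 FPKM, 6135 at 5 FPKM and 28907 for any value above 0, against 12031 at 1 FPKM. With estimated counts in place of FPKM, the top 10, 30 and 100 genes held 14.7%, 22.9% and 33.1%, the mitochondrial genome 10.3%, and the cell, transport and metabolism lists together 2.41%, 3.14% and 7.84%, against 1.98%, 1.74% and 6.74% of FPKM. Without the mitochondrial genome the top genes held 27.7%, 34.2% and 44.2% and the lists 2.57%, 2.27% and 8.74%. Without the leading member of each list the sums were 1.53%, 1.56% and 4.05%. Alternatives chosen after the data were seen left out pseudogenes (top genes 32.2%, 42.4% and 52.4%, mitochondrial share 26.8%, lists 2.30%, 2.03% and 7.83%) or added the 10 copies to the mitochondrial share (33.7% of FPKM, 13.8% of counts). Leaving out each mouse in turn gave 29.3% to 30.1%, 44.4% to 46.1% and 54.4% to 55.7% for the top genes, 22.001% to 23.4% for the mitochondrial genome and, for the lists, 1.95% to 2.03%, 1.72% to 1.76% and 6.63% to 6.94%. Leaving out 1 mouse moved the mean sum by over 1.5 times for the urothelium (9.46 to 5.19 FPKM without Ctrl replicate 4), fat cell (73.5 to 47.5 without replicate 6) and adrenal gland lists (0.0118 to 0.00521 without replicate 5). With pseudocounts of 0.1 and 1, 13 gene pairs passed as before, and 0 of the 6 correlations passed under any alternative tried. For correlations without 1 mouse this decides little, because with 5 mice a single correlation cannot pass after adjustment. Even r = -0.996, for S3 with principal cells without Ctrl replicate 4, had an adjusted p of 0.1 in the exact permutation test. A gene pair without 1 mouse was not tested, since 5 mice cannot reach a p under 0.05. No paired analysis was possible because a single group is described and no groups are compared. Estimated counts give no exact depth, so that genes listed near 0 were not detectable rather than shown to be absent.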

Other observations

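A few interferon-induced genes, chosen after their values were seen, were highest in Ctrl replicate 6 or in Ctrl replicate 3. In Ctrl replicate 6, the ubiquitin-like modifier Isg15 was at 29.5 FPKM against 4.46 to 6.69 in the other kidneys, Ifi27 at 101 against 26.3 to 30.9, and the antiviral membrane protein gene Bst2 at 54.6 against 17.8 to 23.1. In Ctrl replicate 3 the interferon-inducible GTPase genes Igtp, Irgm2, Tgtp1 and Tgtp2 were highest, at 23.6, 15.3, 16.4 and 15.4 FPKM, and Isg15 was at 6.17. In Ctrl replicate 6 these GTPase genes were second highest, at 13.99, 11.1, 6.99 and 7.42 FPKM. Tgtp1 and Tgtp2 are near-identical neighbours whose reads could be split between them.

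Nnt, the mitochondrial transhydrogenase gene, was listed under 2 identifiers. ENSMUSG00000025453 had 11.9, 1.07, 2.17, 9.01, 0.449 and 9.90 FPKM in replicates 1 to 6, and ENSMUSG00000116207 had 13.8, 35.6, 29.5, 8.22, 25.8 and 6.96. The kidneys high for the former were low for the latter, and the sum was 25.7 ± 7.82 FPKM. In all, 67 symbols of the table had 2 identifiers.

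Scgb1a1, a secretory protein gene of airway epithelium, was at 33.3 FPKM in Ctrl replicate 4 and 6.77 in replicate 5 and at 0.0772 or less in the other 4 kidneys. The immediate early genes Egr1, Fos and Junb were detected in every kidney, at 6.46 to 20.3, 2.70 to 8.87 and 10.1 to 23.9 FPKM, and Ctrl replicate 6 was lowest for all 3. Pdk4 and Angptl4, genes induced in fasting, were highest in that kidney, at 22.6 and 22.7 FPKM, and lowest in Ctrl replicate 4, at 4.94 and 8.84.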
